A study of Rattus norvegicus with 6 samples.

Results

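The genes described here code for voltage-gated sodium and calcium channels and for potassium channels, with the auxiliary subunits that carry the same family symbols. They were chosen by name alone, as protein-coding rows whose symbol begins with Kcn, with Cacna, Cacnb or Cacng, or with Scn followed by a number and the letter a or b. The rule found 115 genes among the 20609 rows of the count table. Of these, 44 had enough counts for a test and 71 did not. The cells were rat PC12 cells, a line derived from a pheochromocytoma, a tumor of the adrenal medulla. In 3 libraries the cells had been transfected with a control plasmid (control), and in 3 they carried a plasmid for PCBP-1 (PCBP1-OE), an RNA-binding protein. The methods describe the second plasmid as pCDNA3.1-PCBP1-EGFP-C2, so that the protein carried an EGFP tag, and name Lipofectamine as the reagent. The sources used here give neither what the control plasmid encoded nor the time from transfection to the RNA used for sequencing. A harvest time after transfection is given in the methods for RT-qPCR only. Elsewhere the study calls the overexpression stable and constitutive, whereas its methods describe only the transfection.

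A voltage-gated channel is built around a pore-forming alpha subunit that opens when the membrane potential changes. Sodium channels carry the rising phase of the action potential, calcium channels couple depolarization to secretion and transcription, and potassium channels return the membrane to rest. Auxiliary subunits do not form the pore but set how many channels reach the surface and how they gate. Chromaffin cells of the adrenal medulla are excitable and release catecholamines when calcium enters through such channels.

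Library totals lay between 19730209 and 22315623 counts on genes, and no library stood apart in depth. No row was matched to Pcbp1, so the overexpression was not checked here. The label as a chromaffin-type line was compared with marker genes. Scg2, which codes for a secretogranin, was at 155 ± 14.6 CPM (read counts scaled by library size and TMM, with the SD over n = 3) in control and Th, tyrosine hydroxylase, at 7.95 ± 0.846 CPM. Most of the other chromaffin markers were close to absent, since Ddc, Dbh, Chga, Chgb, Slc18a2, Phox2a and Pnmt each held at most 9 counts in any library. Slc18a1, also on the chromaffin list, was low but present, with 18, 17 and 17 counts in control and 28, 22 and 21 in PCBP1-OE. Its CPM was higher in every PCBP1-OE library (log2 fold change 0.47, FDR = 0.296 by edgeR). In contrast, Sox10, a transcription factor of glia and neural crest, was at 400 ± 9.45 CPM in control, and S100b and Pdgfra also stood above 200 CPM there. Most of the defining chromaffin markers were thus at or near 0, which goes against the label, and the cells are called PC12 only as labelled. The summed CPM of the 6 glial markers ran from 620 to 664 in control and from 587 to 606 in PCBP1-OE, and that of the fibroblast markers from 225 to 230 and from 200 to 212, so that both were lower in every PCBP1-OE library. The neuronal sums ran from 53.2 to 57.7 and from 51.5 to 51.8, and those of the 10 chromaffin markers in the table, mostly Scg2, from 150.6 to 180.3 and from 139 to 153. Leukocyte markers summed to 6.82 to 7.76 and 6.13 to 6.22 CPM, and muscle markers to 4.10 to 4.504 and 2.73 to 3.83 CPM. The neuronal, leukocyte and muscle sums were thus also lower in every PCBP1-OE library, and only the chromaffin sums overlapped between groups. The markers tested were 3 chromaffin, 3 neuronal, 4 glial, 2 leukocyte, 3 fibroblast and 3 muscle genes. Of these, 1 passed the test, beside 9.45% of all genes tested. It was the muscle gene Ckm, which fell from 2.21 to 1.29 CPM (log2 fold change -0.77, FDR = 0.0477 by edgeR). The other muscle genes tested did not pass, with Acta1 at -1.05 and Des at 0.40. Among the defining genes, Aqp4, Pnmt and Nefl held 0 counts in most libraries. The part of these shifts in the channel results was not tested. Because the RNA came from bulk cultures, fewer cells of a type and less RNA per cell cannot be told apart.

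Most channel genes held few or no counts in these cells. Of the 115 genes, 38.3% passed the filter on low counts, compared with 68.4% of the 17732 protein-coding rows, and 31 reached 1 CPM in every library. Each library lacked any count for 26 to 29 of the 115 genes. A count of 3 in a library corresponded to 0.134 to 0.152 CPM, which bounds a gene with no counts for counting error only. The counts were concentrated in a few genes. Kcnn4, which codes for the intermediate-conductance calcium-activated potassium channel, took 29.6% ± 0.534 of all channel counts in control and 27.5% ± 0.189 in PCBP1-OE. The 8 most counted genes, with Kcnab1, Kcnq5, Kcng4, Kcnh6, Kcnt1 and Cacng7 among them, made up 81.2% ± 1.21 and 78.7% ± 0.355. The counts are not divided by transcript length, so such shares describe reads and do not rank genes by molecules.

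**Figure D1:**
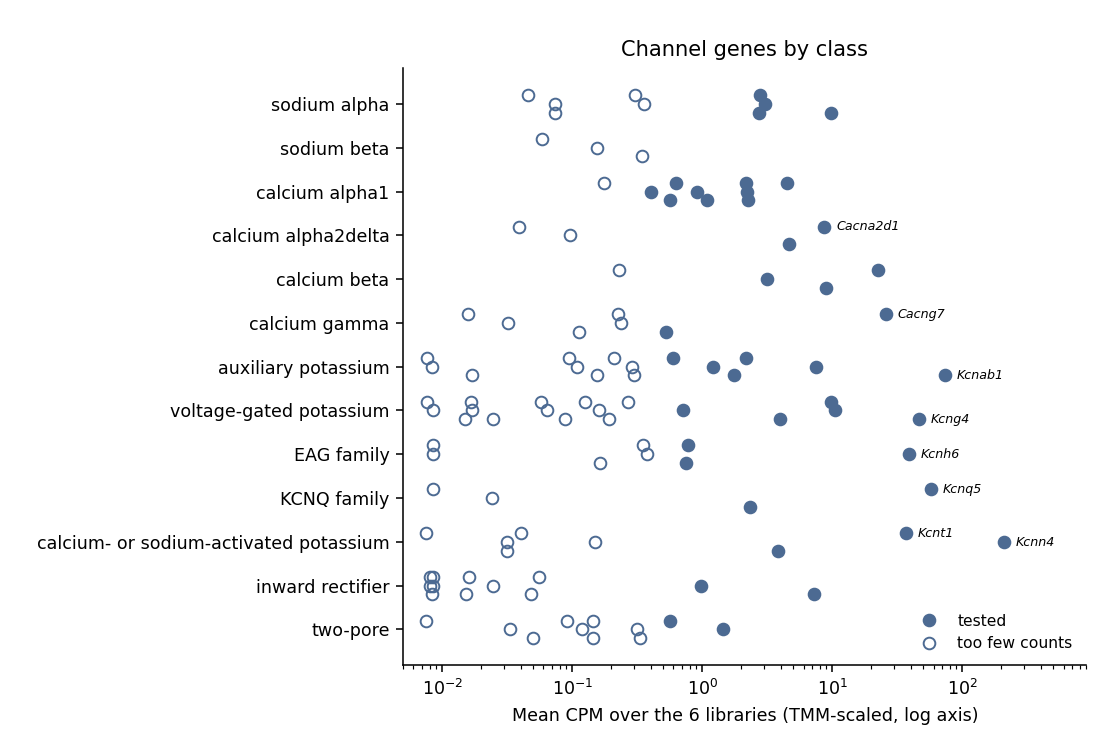
Mean CPM of channel genes over the 6 libraries (log axis), by functional class, with filled points for genes tested and open points for genes with too few counts. Kcnn4 lies farthest to the right. The inward rectifier and two-pore classes hold no gene above 10 CPM, and neither do the sodium alpha, calcium alpha1 and calcium alpha2delta classes.

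In the comparison of PCBP1-OE with control, 4 of the 44 genes passed an FDR of 0.05, which is 9.09%, beside 9.45% of all 12624 genes tested. One gene rose, Cacna2d1, where 4.45% of all genes passed in that direction, and 3 fell, Kcnn4 and Kcnh6 among them, where 5% did. The share of channel genes that passed was thus close to that of all genes. None of the 44 met both the FDR and a change of at least 2-fold, a pair of criteria that 0.19% of all genes met. At an unadjusted p below 0.05 by edgeR there were 7 of the 44 channel genes. No share of all genes was taken beside that count, so it cannot be read as an excess. By DESeq2, 4 channel genes passed the FDR (9.09%, beside 11.2% of all genes), and by limma-voom 4 did (9.09%, beside 9.48%). The groups did not overlap in CPM for 10 of the 44 genes (22.7%), compared with 30.6% of all genes. The fold change was above 0 for 24 genes and below 0 for 20, with a median log2 fold change of 0.043 beside 0.0029 for all genes. For 31 genes the 95% interval of the change lay within 2-fold in both directions, so that a larger change lay outside the interval, and for 13 it reached 2-fold or more.

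**Figure D2:**
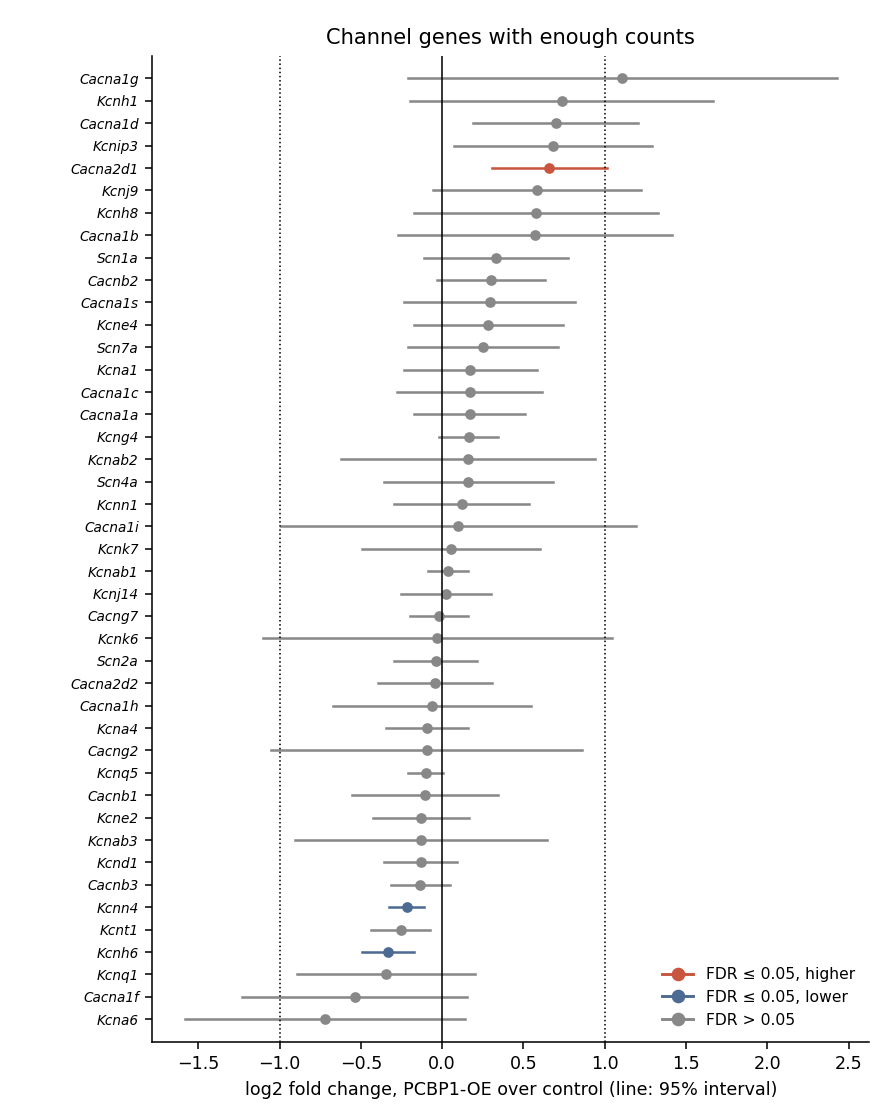
Log2 fold change of PCBP1-OE over control for channel genes tested, with lines for the 95% interval and dotted lines at 2-fold. The coloured genes passed an FDR of 0.05, with Cacna2d1 at 0.66, Kcnn4 at -0.22 and Kcnh6 at -0.33, and the intervals widen for genes with few counts, such as Cacna1g.

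The direction differed between well and poorly counted genes. In the 22 genes with the higher mean CPM (3.04 to 208), the median log2 fold change was -0.04 and 13 were below 0. In the 22 with the lower mean CPM (0.404 to 2.80) it was 0.17 and 15 were above 0. The same ranges over all genes gave medians of -0.0017 in 9335 genes and 0.11 in 2315 genes, so the upward lean among weakly counted channel genes was shared by other genes at that level. In the lower range, 1.08% of all genes passed the FDR, against 10.4% in the upper range.

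Promoter sequence is shown for the called genes that the RefSeq table (GRCr8) holds, Kcnh6 and Cacna2d1, so that a gene that fell and one that rose can be set side by side. Each is the 250 bases before the annotated start, 5′ to 3′ on the gene's strand, with capitals for the motifs GGGCGG (a GC box, read on both strands) and TTCAGCACC (the left part of the RE1 element that the repressor REST binds, read on both strands). The Kcnh6 window lies at chr10:91449401-91449650 on the plus strand and the Cacna2d1 window at chr4:20330148-20330397 on the minus strand, the first of 3 listed for that gene.
Kcnh6: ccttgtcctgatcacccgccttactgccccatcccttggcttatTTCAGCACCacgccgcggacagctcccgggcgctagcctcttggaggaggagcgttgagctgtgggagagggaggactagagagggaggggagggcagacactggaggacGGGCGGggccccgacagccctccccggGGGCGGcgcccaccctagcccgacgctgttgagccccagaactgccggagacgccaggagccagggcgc
Cacna2d1: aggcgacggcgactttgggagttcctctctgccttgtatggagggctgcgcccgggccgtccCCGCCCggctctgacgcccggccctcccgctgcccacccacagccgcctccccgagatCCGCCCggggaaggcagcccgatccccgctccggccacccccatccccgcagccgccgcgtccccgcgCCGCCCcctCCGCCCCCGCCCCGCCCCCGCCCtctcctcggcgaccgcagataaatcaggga
The Kcnh6 window is 69.6% G or C and holds 2 GC boxes and 1 copy of TTCAGCACC. The Cacna2d1 window is 77.2% G or C and holds 7 GC boxes and no TTCAGCACC, and the other windows listed for that gene hold 3 GC boxes each. Over 33469 promoter windows of the same length, the median GC content was 51.2%, and GGGCGG occurred in 30.5%, TATAAA in 12.9% and TTCAGCACC in 0.305%. Of the 115 channel genes, 79 were matched, with 88 windows. Counted by window as well, GGGCGG occurred in 43 of the 88 (48.9%), TATAAA in 3 (3.41%, in Cacna1s, Cacng2 and Kcnj1) and TTCAGCACC in 2 (2.27%, in Kcnh6 and Cacng3). The motifs were chosen after the fits were seen, and a match describes letters in these windows, not binding.

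Among calcium channel genes, the alpha2delta subunit gene Cacna2d1 rose while the pore-forming genes did not pass the test. Cacna2d1 (ENSRNOG00000033531, chromosome 4) codes for the subunit that brings high-voltage-activated calcium channels to the surface and binds gabapentin. Its counts were 156, 103 and 164 in control and 205, 232 and 218 in PCBP1-OE, or 6.73 ± 1.59 and 10.6 ± 1.18 CPM. Every PCBP1-OE library was above every control library, with control replicate 2 lowest. The log2 fold change was 0.66 (SE 0.16, 95% interval 0.30 to 1.01, FDR = 0.0296 by edgeR's quasi-likelihood test). The call was lost when control replicate 1 (FDR = 0.0505), control replicate 2 (0.128) or replicate 1 (0.0718), replicate 2 (0.115) or replicate 3 (0.0769) of PCBP1-OE was left out, and was kept without control replicate 3 (0.00858).

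Its paralog Cacna2d2 was nearly level, with 78, 93 and 125 counts in control and 102, 91 and 88 in PCBP1-OE (log2 fold change -0.04, SE 0.16, 95% interval -0.40 to 0.31). The ratio of Cacna2d1 to Cacna2d2 counts ran from 1.11 to 2 in control and from 2.01 to 2.55 in PCBP1-OE, so the ranges just failed to meet. Cacna2d3 and Cacna2d4 never exceeded 3 counts in a library.

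The alpha1 subunits form the calcium pore and give each current type its name. Of 10 genes, 9 were tested, 7 had a fold change above 0 and none passed the FDR. Their summed level was 13.6 ± 0.127 CPM in control and 16.1 ± 0.516 CPM in PCBP1-OE, without overlap between libraries. The 2 with the highest mean CPM over all 6 libraries were Cacna1a, of the P/Q-type current, at 4.20 ± 0.473 and 4.73 ± 0.439 CPM (log2 fold change 0.17, SE 0.16), and Cacna1s, of the skeletal muscle L-type channel, at 2.01 ± 0.209 and 2.44 ± 0.762 CPM (0.29, SE 0.24), with Cacna1c and Cacna1d close to the latter. Cacna1d (ENSRNOG00000013147, chromosome 16), an L-type gene that opens at low voltage and was picked out after its values were seen, held 29, 30 and 47 counts in control and 49, 66 and 53 in PCBP1-OE. Its CPM did not overlap between groups, and its log2 fold change was 0.70 (SE 0.23, 95% interval 0.19 to 1.20, FDR = 0.0743 by edgeR). It passed in 3 of 14 alternative fits, namely without control replicate 3 (0.0200), without the filter on low counts and by the exact test of edgeR. In the other 11 it did not pass. Among them, the FDR was 0.105 by DESeq2, 0.0853 by limma-voom and 0.126 to 0.254 with any other library left out. Only Cacna1g, of the T-type current, had a fitted change of 2-fold or more, and it rested on 4, 1 and 11 counts in control and 7, 11 and 16 in PCBP1-OE (log2 fold change 1.11, SE 0.61, FDR = 0.254). Cacna1f, the retinal L-type gene, had lower CPM in every PCBP1-OE library than in any control (log2 fold change -0.54, SE 0.32, FDR = 0.295). Cacna1b, Cacna1c, Cacna1h and Cacna1i lay between -0.06 and 0.57.

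The cytosolic beta subunits bind the alpha1 subunit and promote its export to the membrane. Cacnb3 held 23.7 ± 1.92 CPM in control and 21.5 ± 0.764 in PCBP1-OE (log2 fold change -0.14, SE 0.08, FDR = 0.314), and Cacnb2 held 8.04 ± 1.28 and 9.86 ± 1.73 (0.30, SE 0.15, FDR = 0.223). The libraries of both genes overlapped between groups, as did those of Cacnb1. Among gamma subunits, Cacng7, also an auxiliary protein of AMPA-type glutamate receptors, held 538, 549 and 536 counts in control and 526, 512 and 535 in PCBP1-OE. Its 95% interval on the log2 scale was -0.20 to 0.16, among the narrower ones. Cacng2, which codes for stargazin, held at most 15 counts in a library.

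Among sodium channel genes, no pore-forming alpha subunit passed the test. Of 10 such genes 4 were tested, and their class summed to 19.1 ± 1.28 CPM in control and 20.2 ± 1.13 CPM in PCBP1-OE. Scn2a, a brain-type gene, held 220, 189 and 215 counts in control and 216, 200 and 182 in PCBP1-OE (log2 fold change -0.04, SE 0.12, 95% interval -0.29 to 0.21). Scn7a, an atypical member linked to sodium sensing, held 49, 47 and 80 counts and 75, 75 and 55 (log2 fold change 0.25, SE 0.21, FDR = 0.475). Scn1a and Scn4a were tested as well and overlapped between groups. Scn9a and Scn3a, alpha subunit genes known from endocrine and sympathetic cells, held at most 3 and 10 counts in a library.

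Among potassium channels that open on intracellular calcium or sodium, Kcnn4 fell. Kcnn4 (ENSRNOG00000019440, chromosome 1) codes for a channel gated by calmodulin and known from red cells and lymphocytes. Its counts were 4646, 4725 and 4686 in control and 4265, 3858 and 3789 in PCBP1-OE, or 224 ± 14.1 and 193 ± 1.32 CPM. The PCBP1-OE libraries lay close together, below all controls. The log2 fold change was -0.22 (SE 0.05, 95% interval -0.32 to -0.11, FDR = 0.0221 by edgeR). The call was lost without control replicate 1 (0.125), control replicate 2 (0.142), or replicate 1 (0.100), replicate 2 (0.0891) or replicate 3 (0.0649) of PCBP1-OE, and kept without control replicate 3 (8.9e-04).

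Kcnt1 (ENSRNOG00000017283, chromosome 3), a sodium-activated potassium channel, held 859, 824 and 816 counts in control and 805, 676 and 587 in PCBP1-OE. Control replicate 3 and PCBP1-OE replicate 1 overlapped, and the log2 fold change of -0.26 (SE 0.08, 95% interval -0.44 to -0.07) had an FDR of 0.0713 by edgeR. The ratio of Kcnn4 to Kcnt1 counts ran from 5.41 to 5.74 in control and from 5.30 to 6.45 in PCBP1-OE, which overlap. Kcnn1, a small-conductance gene, was at 3.68 ± 0.652 and 4.01 ± 0.737 CPM. Kcnma1, the large-conductance channel typical of chromaffin cells, held at most 2 counts in any library.

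In the ether-a-go-go family, Kcnh6 fell. Kcnh6 (ENSRNOG00000008078, chromosome 10) belongs to the ERG group, whose channels shape repolarization. Its promoter window is printed above, and any link between the motifs there and the change was not tested. It held 916, 931 and 864 counts in control and 794, 679 and 651 in PCBP1-OE, or 43.3 ± 4.25 and 34.3 ± 1.51 CPM, without overlap. The log2 fold change was -0.33 (SE 0.08, 95% interval -0.50 to -0.17, FDR = 0.0208 by edgeR). The call was lost without control replicate 1 (0.0915), control replicate 2 (0.121), or replicate 1 (0.0600), replicate 2 (0.0854) or replicate 3 (0.0603) of PCBP1-OE, and kept without control replicate 3 (6.4e-04).

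The other members of that family were near the limit of detection. Kcnh1, the founding ether-a-go-go gene, held 16, 11 and 9 counts in control and 10, 27 and 22 in PCBP1-OE (log2 fold change 0.74, SE 0.43, FDR = 0.286). Kcnh8 had a log2 fold change of 0.58 (SE 0.35, FDR = 0.298), with CPM that did not overlap between groups. The ERG gene best known from heart, Kcnh2, held 6 to 11 counts in every library and was not tested.

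**Figure D3:**
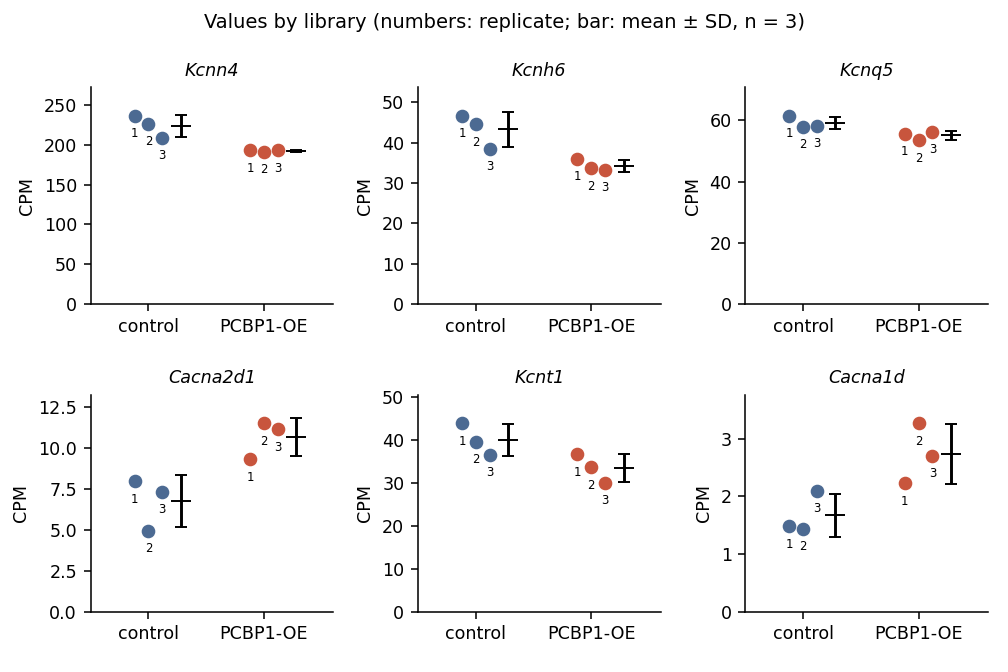
CPM of 6 channel genes in each library (points, numbered by replicate) with the mean and SD of each group (bars, n = 3), on axes that start at 0. Kcnn4, Kcnh6 and Kcnq5 are lower and Cacna2d1 and Cacna1d higher in every PCBP1-OE library than in any control, whereas the groups overlap for Kcnt1.

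The remaining potassium channel classes held no gene that passed the FDR. Kcnq5, whose channels carry the M-type current that damps repetitive firing, held 1207, 1210 and 1305 counts in control and 1227, 1079 and 1104 in PCBP1-OE. Its CPM did not overlap between groups, at 59.2 ± 2.01 and 55.2 ± 1.51, with a log2 fold change of -0.10 (SE 0.05, 95% interval -0.21 to 0.01, FDR = 0.209). Kcnq1, the relative known from heart and epithelia, held 2.61 ± 0.395 and 2.03 ± 0.692 CPM (log2 fold change -0.35, SE 0.25).

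Of the 18 voltage-gated pore genes of the Shaker type and their modifier relatives, 5 were tested. Kcng4, a modifier subunit that works only in complexes with other alpha subunits, held 936, 951 and 853 counts in control and 1018, 952 and 1051 in PCBP1-OE (log2 fold change 0.16, SE 0.08, FDR = 0.218). Kcnb2, one of the Shab-type subunits with which such modifiers assemble, held 1 count in all 6 libraries together. Kcnd1, of the transient A-type current, was at 11.0 ± 0.429 and 10.01 ± 0.154 CPM (log2 fold change -0.13, SE 0.10, FDR = 0.434), without overlap. Kcna4, Kcna1 and Kcna6 lay at -0.09, 0.17 and -0.72, and the last held at most 24 counts in a library.

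The potassium auxiliary genes include cytosolic Kcnab subunits, single-pass Kcne peptides and calcium-binding Kcnip proteins. Kcnab1 held 1355, 1601 and 1628 counts in control and 1751, 1432 and 1434 in PCBP1-OE. With a log2 fold change of 0.03 (SE 0.06, 95% interval -0.09 to 0.16), it was among the well-counted genes with the least change. Kcne2 was at 7.83 ± 0.870 and 7.16 ± 0.764 CPM (log2 fold change -0.13, SE 0.14). Kcnip3, also known as a transcriptional repressor, held 23, 25 and 37 counts in control and 31, 55 and 47 in PCBP1-OE (log2 fold change 0.68, SE 0.28, FDR = 0.131).

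Inward rectifiers and two-pore potassium channels, which set the resting potential, were scarce. Kcnj14 held 134, 145 and 170 counts in control and 165, 133 and 150 in PCBP1-OE (log2 fold change 0.02, SE 0.13). Kcnj9, a subunit of channels opened by G proteins, held 13, 18 and 18 counts and 21, 24 and 27 (log2 fold change 0.58, SE 0.30, FDR = 0.214), without overlap in CPM. Kcnk7 held 23 to 34 counts and Kcnk6 6 to 20 counts per library, with log2 fold changes of 0.05 (SE 0.25) and -0.03 (SE 0.50).

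The 71 untested genes together gave 1.08% of the channel counts. Their totals over the 6 libraries ran from 1 to 52 with a median of 7, and 39 of them held at most 10. None exceeded 16 counts in a library. By class, 6 sodium alpha, 3 sodium beta, 1 calcium alpha1, 2 alpha2delta, 1 calcium beta, 5 calcium gamma, 13 voltage-gated potassium, 5 ether-a-go-go, 2 KCNQ, 5 calcium- or sodium-activated, 10 inward rectifier, 9 two-pore and 9 auxiliary potassium genes were not tested. A change in these genes was not detectable at this depth. The inward rectifier genes Kcnj2, Kcnj3, Kcnj8, Kcnj12 and Kcnj16 each had 1 count in all.

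The summed level of the 115 genes was 756 ± 34.6 CPM in control, from 720 to 789, and 700 ± 5.51 CPM in PCBP1-OE, from 697 to 707. Without Kcnn4, which was left out after its values were seen, the sums were 532 ± 20.5 and 508 ± 4.88 CPM, and the libraries overlapped between groups.

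**Figure D4:**
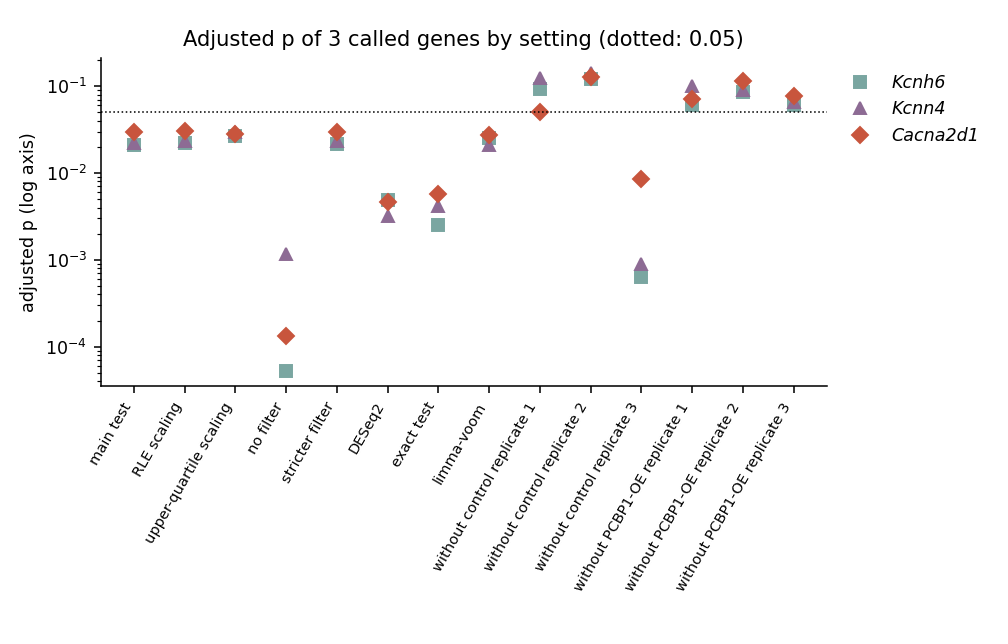
Adjusted p of Kcnn4, Kcnh6 and Cacna2d1 (log axis) under the main test, 7 other ways of processing and 6 fits that each leave out 1 library, with a dotted line at 0.05. All 3 genes lie below the line under every way of processing shown, whereas of the fits without a library only that without control replicate 3 keeps them. The fit with a replicate block is not drawn, and there none of the 3 passed (FDR 0.0942 for Kcnh6, 0.120 for Kcnn4 and 0.129 for Cacna2d1).

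The number of calls moved with the libraries used. It was 0 when replicate 1 or replicate 2 of the controls or replicate 1 of PCBP1-OE was left out. It was 1 without replicate 2 or replicate 3 of PCBP1-OE, and 6 without control replicate 3, when Kcnt1 and Cacna1d passed as well. The share of all genes that passed moved in the same fits, from 0.375% without control replicate 2 to 22.3% without control replicate 3.

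Genes that act with these channels but lie outside the naming rule were taken from a list of 50 symbols, of which 42 were in the table with 44 rows and 29 rows were tested. Of these, 6 passed the FDR (20.7%, beside 9.45% of all genes), 3 higher and 3 lower, and the median log2 fold change was 0.02. The list was chosen with earlier results of these data known, so its share describes the list and is no test of an excess. The largest change was in Rest, the repressor that keeps neuronal genes, channel genes among them, silent in other cells. Rest held 226, 161 and 219 counts in control and 361, 341 and 330 in PCBP1-OE, or 9.67 ± 1.91 and 16.7 ± 0.285 CPM, and the groups did not overlap. It rose by a log2 fold change of 0.79 (SE 0.13, FDR = 0.00807 by edgeR) and passed in each of the 6 fits that left out a library. Its corepressor gene Rcor1 had 2 rows, with log2 fold changes of 0.65 and 0.18 that did not pass.

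Ank2, which codes for an ankyrin that anchors channels to the membrane skeleton, held 92, 72 and 97 counts in control and 159, 128 and 106 in PCBP1-OE and rose (log2 fold change 0.61, FDR = 0.0407). Akap9, the scaffold that ties protein kinase A to the Kcnq1 channel, rose from 92.9 to 109 CPM (log2 fold change 0.23, FDR = 0.0268). Calmodulin is the calcium sensor bound to Kcnn4 and to alpha1 subunits, and its gene Calm2 fell, with a log2 fold change of -0.19 (FDR = 0.0404), while Calm3 was at -0.15 (FDR = 0.0826). Tpcn1, an endolysosomal cation channel, fell as well (log2 fold change -0.20, FDR = 0.0193). The calls of Ank2, Akap9, Calm2 and Tpcn1 did not hold with every library left out. All 4 were kept without control replicate 3, Akap9 also without control replicate 1 (0.0461) and Calm2 also without PCBP1-OE replicate 3 (0.0429). In the fits that lost them, the FDR ran from 0.0528 to 0.165 for Akap9, 0.0508 to 0.185 for Ank2, 0.135 to 0.186 for Calm2 and 0.0706 to 0.143 for Tpcn1. Under upper-quartile scaling Calm2 did not pass either (0.0533), and 4 partner genes did.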

How the data were processed

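The deposited table holds raw gene counts, not normalized by the authors, for 6 RNA-seq libraries, 3 control and 3 PCBP1-OE, matched to groups by their labels. According to the methods, reads were aligned to Rnor_6.0 with TopHat2 and uniquely mapped reads were kept. The submitters' processing notes name GRCh38 instead, while the gene identifiers are those of rat. The labels and the methods name different stranded library kits. How reads were assigned to genes, with which strand setting and annotation, is not given in the sources used here. Counts of genes that overlap or have a close copy are therefore uncertain. The study calls its replicates biological, but nothing states that they came from separate cultures. The p-values therefore measure only the spread between these samples, which may be technical.

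Counts were tested with edgeR 4.0.16 (R 4.3.3) by the quasi-likelihood test on group alone, with TMM scaling, after filterByExpr had removed genes with few counts (minimum count 10 and minimum total 15), and p-values were adjusted by Benjamini-Hochberg over all 12624 genes tested (FDR). The same fit gave SEs and 95% intervals. The pipeline was tested on simulated data with planted changes of 2-fold or more, larger than that of any channel gene past the FDR. That run does not bear on changes of the size called here. The alternatives tried were DESeq2 1.42.0, limma-voom (limma 3.58.1), the exact test of edgeR, scaling by RLE or by the upper quartile, a filter of 1 CPM in 3 libraries or none at all, a replicate block, and omission of each library in turn. Members and lists were chosen with earlier results of these data known. Named genes are those past the FDR, the 2 with the highest mean CPM in each class, those with a change of 2-fold or more, and partner genes past the FDR. Other genes were named after their values were seen, and some genes are not reported by name or drawn here. Promoter windows come from RefSeq (GRCr8), which was not the build of the counts.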

Additional observations from a re-analysis of the deposited data

How the results depend on the processing

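Under RLE and upper-quartile scaling, the stricter filter, DESeq2 and limma-voom, the same 4 channel genes passed an FDR of 0.05, and they were also among the 6 called without a filter and by the exact test. The 6 made up 5.22% of the channel genes without a filter, beside 10.1% of all genes. By the exact test they made up 13.6%, beside 12.6%. Genes higher in PCBP1-OE then numbered 2 without a filter and 2 by the exact test. Upper-quartile scaling moved the median log2 fold change of the channel genes to 0.063. With 1 library left out, channel genes past the FDR ran from 0 to 6, those higher from 0 to 2, those lower from 0 to 4, partner genes from 1 to 8 and the median log2 fold change from 0.018 to 0.10. With the replicate number as a block, 0 channel genes (0 higher and 0 lower), 0 partner genes and 16 of all genes passed, and the FDR was 0.0942 for Kcnh6, 0.120 for Kcnn4, 0.129 for Cacna2d1 and 0.0858 for Rest. Libraries with the same number did not deviate together (r = -0.10, -0.08 and -0.11 over genes, and 0 of 3 correlated best with their own number). These values give no sign of pairing by number. With 3 libraries per group they cannot settle how the samples were handled. Genes with a change near 0 turned direction when a library was left out, with log2 fold changes from -0.60 to 0.39 for Kcnk6, -0.076 to 0.029 for Cacng7, -0.097 to 0.059 for Scn2a, -0.065 to 0.19 for Kcnk7, -0.40 to 0.22 for Cacng2, -0.14 to 0.11 for Cacna2d2, -0.015 to 0.079 for Kcnab1 and -0.0091 to 0.088 for Kcnj14. The cause was not tested. Depth limits the 71 untested genes and those near the filter, whose intervals reach 2-fold.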
